A study of Mus musculus with 8 samples.

Results

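The endocannabinoid receptor and enzymes described here are 8 of 27373 gene names on the array, and their hippocampal expression was compared between BTBR mice and B6 controls. They are Cnr1, the CB1 cannabinoid receptor, and the serine hydrolases and phospholipase that make and break down its lipid ligands, namely Dagla, Daglb, Napepld, Mgll, Abhd6, Abhd12 and Faah. Every non-control probe whose gene name in the array files was one of these 8 symbols was taken, which gave 15 of 41174 probes. Total RNA from the whole hippocampus of 4 mice per strain was hybridized to single-color Agilent arrays, with 1 mouse on each, and according to their labels all 8 were males aged 5 months. The B6 group holds wild type C57BL/6J mice, and the BTBR group holds mice of the inbred strain BTBR T+ Itpr3tf/J, which is studied as a model of autism. The labels list C57BL/6J as strain background for both groups, while genotype, title and source name the BTBR samples as BTBR. Both strains came from a commercial breeder and were then bred in one institute, no mouse received a drug, and the 2 inbred strains differ at many loci, so that a strain difference cannot be assigned to one allele.

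Endocannabinoids are lipid messengers that a neuron makes on demand and that travel backwards across the synapse, where they bind CB1 receptors on the presynaptic terminal and lower transmitter release. In the hippocampus CB1 is most abundant on the terminals of cholecystokinin (CCK) interneurons and is also found, at a lower density, on glutamatergic terminals. Diacylglycerol lipases make 2-arachidonoylglycerol (2-AG), which monoacylglycerol lipase and, to a lesser degree, the ABHD6 and ABHD12 hydrolases clear, whereas anandamide comes in part from the phospholipase NAPE-PLD and is hydrolyzed by fatty acid amide hydrolase.

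Each probe is a DNA strand of 60 bases, and 5 of the 15 are shown because the results turn on their genes. Capitals mark whole codons of the only reading frame without a stop codon on the strand of the probe, and a sequence in lower case has either no such frame or more than 1. Positions are those the array files give, on mm9. The Cnr1 probe (A_51_P403378) lies at chr4:34031372-34031431 on the plus strand and is open in 1 frame over its whole length. The first Dagla probe (A_52_P12739), at chr19:10322495-10322554 on the minus strand, is also open in 1 frame. The second Faah probe (A_51_P386660) spans chr4:115671183-115671447 on the minus strand, 265 bases of genome for 60 bases of probe, the layout of a probe that crosses an intron. Of the Daglb probes, A_51_P122582 at chr5:144264931-144264990 and A_52_P277394 at chr5:144266740-144266799, both on the plus strand, only the first 30 bases are printed, and both have stop codons in every frame over their 60 bases.
Cnr1: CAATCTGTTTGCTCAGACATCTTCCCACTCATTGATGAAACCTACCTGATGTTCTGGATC
Dagla: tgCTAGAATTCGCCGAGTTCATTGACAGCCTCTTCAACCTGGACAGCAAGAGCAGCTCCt
Faah: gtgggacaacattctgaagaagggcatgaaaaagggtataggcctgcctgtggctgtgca
Daglb, first probe: ccctcatggatacatgagctagctgatcac
Daglb, second probe: gaaactaaggaagcactaactagctctgag
Exon and UTR annotation of the positions was not analysed here.

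The 8 arrays sat on 2 slides, with replicates 1 and 2 of each strain on slide 1 and the remaining 4 arrays on slide 2. Between 56.8% and 71.9% of probes were well above background on the B6 arrays and between 61.9% and 71.5% on the BTBR arrays, and no spot was saturated. BTBR replicates 1 and 2 stood apart in markers of neighboring tissue. The summed intensity of 6 thalamus markers was 78860 in BTBR replicate 1, 10.13 times the median of the other arrays, and that of 7 striatum markers was 333500 in BTBR replicate 2, 11.42 times the median of the others. All 6 thalamus and all 7 striatum markers passed the filter on dim probes, Gbx2 of the thalamus list through its BTBR arrays alone. The thalamus marker Lhx9 hardly rose, at 11.20 in BTBR replicate 1 against 11.14 in B6 replicate 4. Nor did the striatum marker Adora2a, at 11.41 in BTBR replicate 2 against 11.40 in B6 replicate 1. The other markers carried the rise, and Penk gave most of the striatum sum. The difference of each tested member without BTBR replicates 1 and 2 is given with that member. Of the 5 markers each for glutamatergic hippocampal neurons and CCK interneurons all were measured and none passed the test between strains, with sums of at least 92060 and 194600 on every array.

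Expression is given as quantile normalized log2 intensity, a difference between strains is BTBR minus B6 on that scale, and a probe is called when its limma adjusted p is under 0.05 over the 27982 probes tested. Of the 15 probes, 13 passed the filter on dim probes, with at least 1 for each of the 8 genes, and 12 of these were well above background on all 8 arrays. None of the 13 was called by limma, where 7.61% of all probes tested were called, 4.30% lower and 3.31% higher in BTBR. An unadjusted p under 0.05 was found for 2 of the 13, both of Daglb and both lower, against 18.5% of all probes in either direction and 9.42% in the lower direction. The rank product, the test of the study's methods, with calls at an estimated share of false positives (pfp) of 0.05 or less, also called 0 of the 13, against 3.95% of all probes. Lower means in BTBR were found for 11 of the 13 probes and higher means for 2, with a median difference of -0.16 against 0.01 over all probes. That balance rests on BTBR replicates 1 and 2, since only 6 of the 13 were lower without both. In bulk tissue, fewer cells that express a gene and less RNA per cell cannot be told apart.

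**Figure D1:**
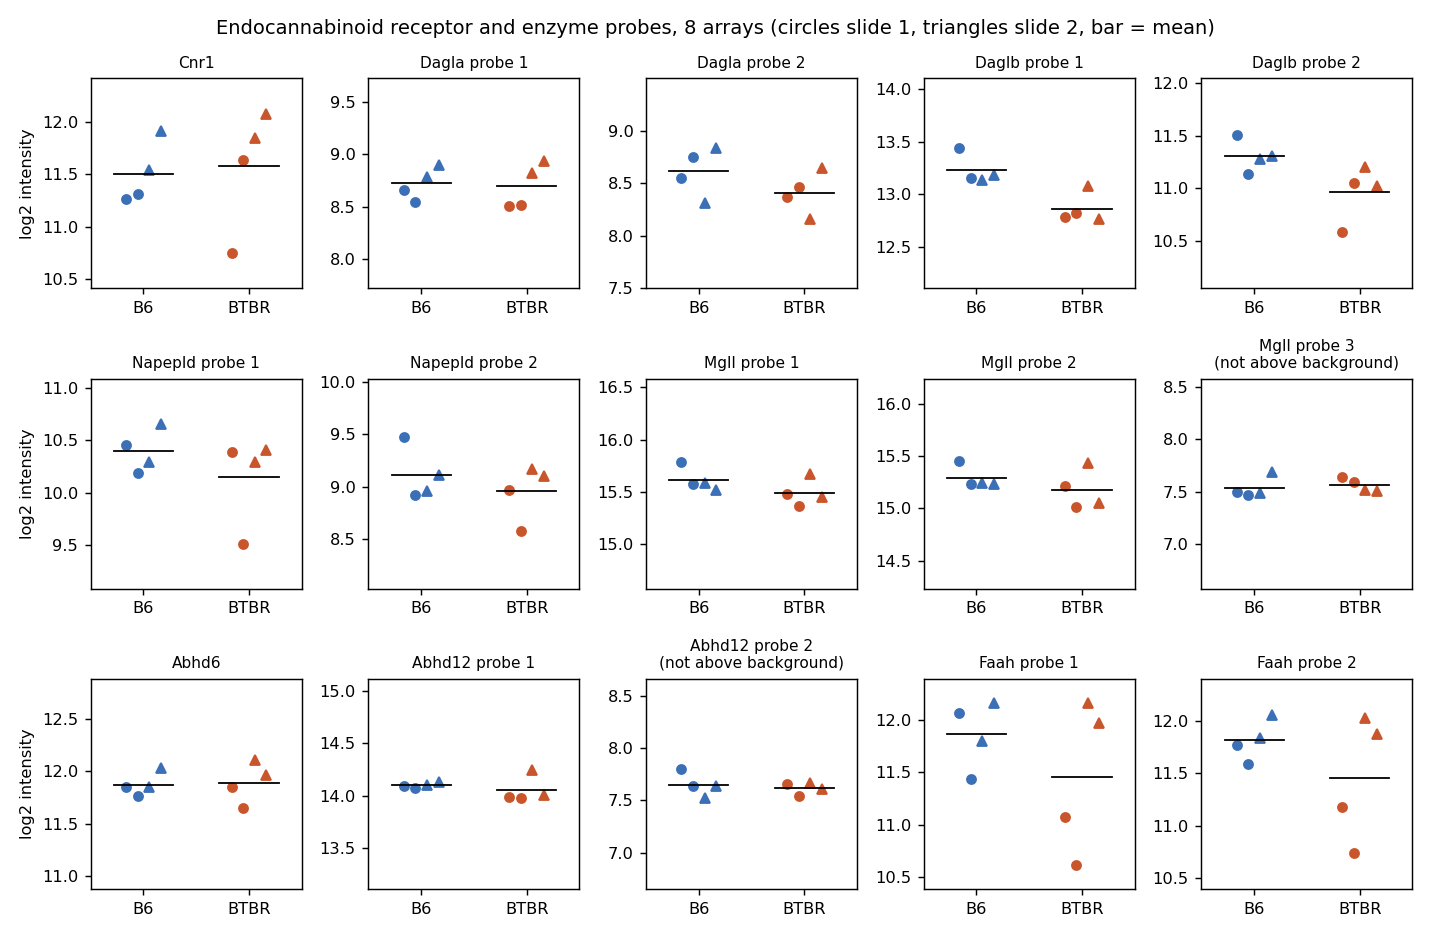
Quantile normalized log2 intensity of the 15 probes on each array (y axis, a window of equal height in every panel) for B6 and BTBR (x axis). Circles are replicates 1 and 2 (slide 1), triangles are replicates 3 and 4 (slide 2), and bars are means of 4 mice. Daglb probe 1 is the panel in which no BTBR array reaches a B6 array among the 13 tested probes, and the 2 lowest Faah values at each probe are the 2 BTBR circles.

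**Figure D2:**
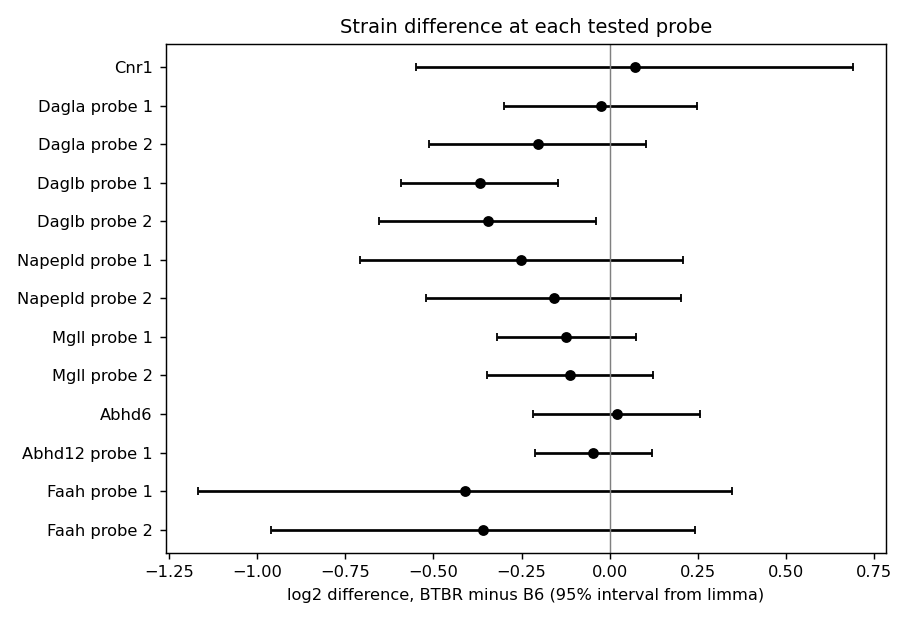
Difference of mean log2 intensity, BTBR minus B6 (x axis), at each of the 13 tested probes (y axis). Points are the limma estimates from 4 mice per strain and bars are 95% intervals without adjustment for the number of probes. The intervals of both Daglb probes lie below 0, and those of Cnr1 and Faah are the widest.

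The receptor showed similar means in both strains and a wide spread. Cnr1 read 11.26, 11.31, 11.54 and 11.91 in B6 replicates 1 to 4 and 10.75, 11.64, 11.84 and 12.08 in the BTBR replicates. The lowest and the highest of the 8 values were both from BTBR mice, and the strains overlapped. The means were 11.51 ± 0.29 in B6 and 11.58 ± 0.58 in BTBR (SD, n = 4 each), a difference of 0.07 (SE 0.27, adjusted p = 0.925). The 95% interval of this difference, from -0.55 to 0.69, left room for a change of either sign. The low BTBR value was that of replicate 1, the array with the high thalamus markers, and without it the difference was 0.35. Without both BTBR replicates 1 and 2 it was 0.46 (adjusted p = 0.263). The part of that tissue in the low value was not tested. The residual SD of Cnr1, the spread between mice within a strain, was 0.46 and exceeded that of 96.2% of all probes tested.

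CB1 sits on CCK interneurons, and their markers were read beside it. None of the 5 was called, and they did not move one way, with Cck at -0.14, Cxcl14 at -0.36 and Htr3a at -0.37 against Slc17a8 at 0.27 and Sncg at 0.52. The arrays of the strains did not overlap for 3 of the 5, Cxcl14, Slc17a8 and Sncg, against 14.2% of all probes tested. On slide 1, which holds BTBR replicates 1 and 2, Sncg differed by 0.92 and Htr3a by -0.71, and on slide 2 by 0.12 and -0.03. The summed intensity of the 5 CCK interneuron markers lay between 280700 and 305500 on the B6 arrays and was 267900, 194600, 290700 and 299500 on BTBR replicates 1 to 4. That sum is mostly the signal of Cck and Cxcl14. The summed intensity of the 5 glutamatergic neuron markers was between 129800 and 149200 in B6 and was 96240, 92060, 179300 and 141000 in BTBR. BTBR replicates 1 and 2 were the lowest of the 8 arrays in that sum, and replicate 3 was the highest.

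Among the member enzymes that make endocannabinoids, 1 of the 2 Daglb probes had arrays that did not overlap between strains, and 1 of 13 is near the background share over all probes. Daglb encodes diacylglycerol lipase beta, which in brain is associated more with microglia than with neurons, while its paralog Dagla supplies most synaptic 2-AG. The first Daglb probe read 13.44, 13.16, 13.14 and 13.18 in B6 and 12.78, 12.82, 13.08 and 12.77 in BTBR. All 4 BTBR values lay below all 4 B6 values, as they did for 7.26% of all probes tested (14.2% in either direction). The means were 13.23 ± 0.14 in B6 and 12.86 ± 0.14 in BTBR (SD, n = 4 each), a difference of -0.37 (SE 0.10, 95% interval from -0.59 to -0.15), or 0.7745 of the B6 level. The adjusted p was 0.057, just short of the threshold, and 8.08% of all probes tested had a smaller p. In an exact two-sided permutation test the p was 0.0286, the smallest that 4 arrays against 4 allow.

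The second Daglb probe gave the same size of difference with more overlap. It read 11.51, 11.14, 11.28 and 11.31 in B6 and 10.59, 11.05, 11.20 and 11.02 in BTBR. BTBR replicate 3 lay above the lowest B6 array. The difference was -0.35 (SE 0.14, 95% interval from -0.65 to -0.04), with an adjusted p of 0.206 and an exact permutation p of 0.0571. Without both BTBR replicates 1 and 2 it was -0.20 (adjusted p = 0.45). The Daglb call lay near the threshold and changed with the processing and with 1 mouse left out. The first probe was called in the authors' deposited matrix (-0.37, adjusted p = 0.0499), after median centring (-0.43, adjusted p = 0.00992) and without BTBR replicate 3 (-0.44, adjusted p = 0.0195), and it was not called in the other 20 of 23 alternatives. Under those 3 settings 7.68%, 6.87% and 7.78% of all probes were called. Its difference was between -0.50 and -0.24 over the 23, and without both BTBR replicates 1 and 2 it was -0.31 (adjusted p = 0.265). Settings that change only the filter, the blocks or the test cannot move the difference and repeat its main value. The microglia markers were read beside Daglb. Of these 7 markers 5 had lower and 2 higher means in BTBR, with a median difference of -0.05. Cx3cr1, the fractalkine receptor, rose by 1.41 and Itgam, an integrin subunit, fell by 0.40 on the log2 scale. The summed intensity lay between 37810 and 46220 in BTBR and between 33530 and 35840 in B6, and without Cx3cr1 the ranges overlapped, at 26590 to 33520 and 29320 to 31610. The part of microglia in the Daglb values was not tested.

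**Figure D3:**
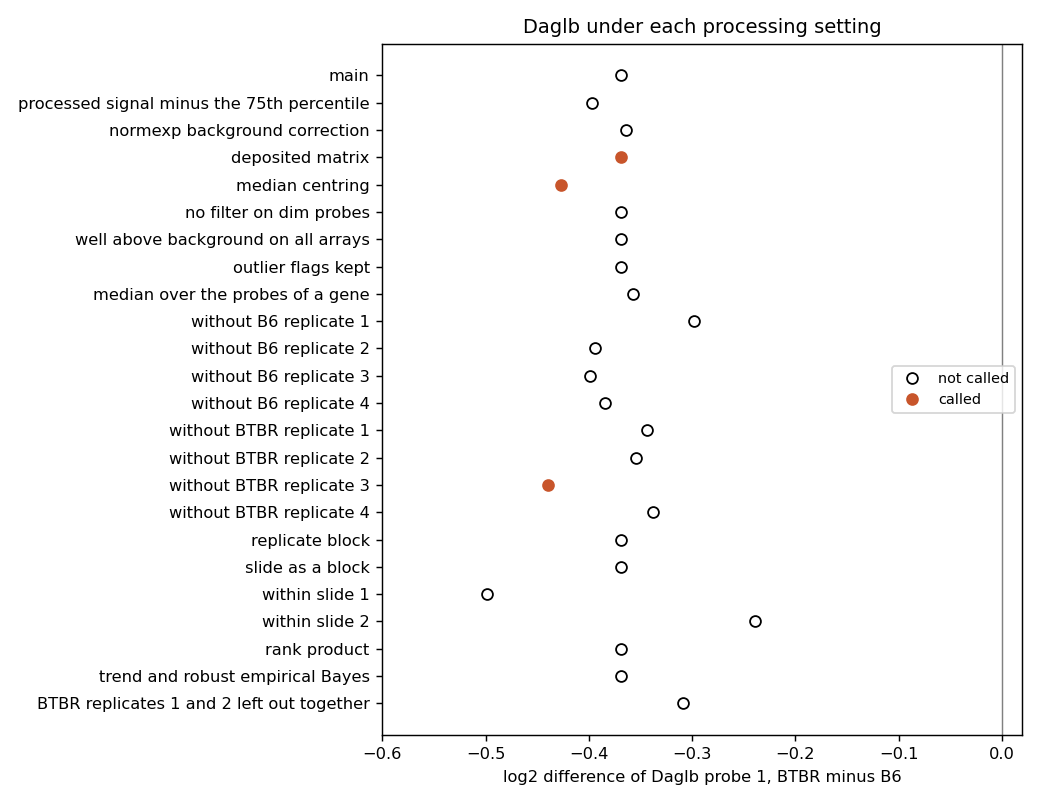
Difference of Daglb probe 1, BTBR minus B6 on the log2 scale (x axis), under the main processing and 23 alternatives (y axis). Filled points were called (adjusted p under 0.05, for the rank product a pfp of 0.05 or less) and open points were not. All points lie between -0.50 and -0.24, and 3 are filled.

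Dagla read low on these arrays and did not separate. The first Dagla probe read 8.66, 8.55, 8.78 and 8.90 in B6 and 8.51, 8.52, 8.82 and 8.94 in BTBR. Both strains covered nearly the same range. The difference was -0.03 (SE 0.12, 95% interval from -0.30 to 0.25, adjusted p = 0.941). The second Dagla probe (A_52_P127682, chr19:10319766-10319825), whose 60 bases are 23.3% G or C, was well above background on 4 B6 and 3 BTBR arrays. Its values were 8.55, 8.75, 8.32 and 8.83 in B6 and 8.37, 8.46, 8.16 and 8.64 in BTBR, a difference of -0.20 (95% interval from -0.51 to 0.10, adjusted p = 0.494). The strains overlapped at both probes. Without both BTBR replicates 1 and 2 the differences were 0.16 and -0.21. That of the second probe was -0.47 with the processed signal and -0.12 without BTBR replicate 3.

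Napepld, which releases anandamide and related amides from their membrane precursors, had 2 tested probes and no call. The first (A_51_P392943, chr5:21169333-21169392, minus strand) read 10.46, 10.19, 10.30 and 10.66 in B6 and 10.39, 9.52, 10.29 and 10.41 in BTBR. The value of BTBR replicate 2 lay below the other 7, which were within 10.19 to 10.66. The difference was -0.25 (SE 0.20, 95% interval from -0.71 to 0.21, adjusted p = 0.59), and without BTBR replicate 2 it was -0.04 and without replicates 1 and 2 it was -0.05. The second probe (A_52_P292853, chr5:21171101-21171160) differed by -0.16 (95% interval from -0.52 to 0.20, adjusted p = 0.68), and by 0.02 without those 2 arrays. Without BTBR replicate 2 alone it differed by -0.03, and without B6 replicate 1 alone by -0.04.

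Of the enzymes that clear 2-AG, none was called. Mgll encodes monoacylglycerol lipase, which removes most 2-AG in brain. Its first probe (A_51_P139920, chr6:88778286-88778345, plus strand) read 15.79, 15.57, 15.58 and 15.52 in B6 and 15.48, 15.37, 15.67 and 15.45 in BTBR. Of the BTBR arrays, 3 lay below every B6 array, and replicate 3 exceeded 3 of the 4 B6 values. The difference was -0.12 (SE 0.09, 95% interval from -0.32 to 0.08, adjusted p = 0.53). The second probe (A_52_P609778), which spans 2304 bases of genome at chr6:88773375-88775678, differed by -0.11 (95% interval from -0.35 to 0.12, adjusted p = 0.646). Without both BTBR replicates 1 and 2 the probes differed by -0.06 and -0.05, and without B6 replicate 1 alone by -0.06 at each. The third (A_52_P568977, chr6:88716583-88716642) stayed at background level on all 8 arrays and was not tested.

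Abhd6 and Abhd12, 2 further hydrolases of 2-AG, had fitted differences near 0. Abhd6 (A_52_P496497, chr14:8882329-8882388, plus strand) read 11.85, 11.76, 11.85 and 12.03 in B6 and 11.85, 11.65, 12.11 and 11.97 in BTBR. The difference was 0.02 (SE 0.10, 95% interval from -0.22 to 0.26, adjusted p = 0.948), and its sign turned to -0.04 under median centring. Without both BTBR replicates 1 and 2 it was 0.16 (adjusted p = 0.465). Abhd12 (A_51_P299309, chr2:150658865-150660062, minus strand) read 14.09, 14.07, 14.10 and 14.13 in B6 and 13.99, 13.98, 14.24 and 14.00 in BTBR. Of the BTBR arrays 3 were below all B6 arrays and replicate 3 was above all of them. The difference was -0.05 (SE 0.07, 95% interval from -0.21 to 0.12, adjusted p = 0.807). Without BTBR replicate 3 it was -0.11 (adjusted p = 0.315), and without BTBR replicates 1 and 2 it was 0.02. The second Abhd12 probe (A_51_P400009, chr2:150662588-150662647) is placed on the plus strand, opposite to the first, and stayed at background level on all 8 arrays too.

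Faah, which hydrolyzes anandamide, had at its first probe the largest fitted difference and the largest spread of the tested member probes. The first probe (A_52_P223704, chr4:115669624-115669683, minus strand) read 12.07, 11.43, 11.80 and 12.16 in B6 and 11.07, 10.62, 12.16 and 11.97 in BTBR. The second probe read 11.77, 11.59, 11.84 and 12.06 in B6 and 11.18, 10.74, 12.02 and 11.87 in BTBR. At both probes BTBR replicates 1 and 2 were the lowest of the 8 arrays, while BTBR replicates 3 and 4 lay within or at the top of the B6 range. The differences were -0.41 (SE 0.33, 95% interval from -1.17 to 0.35, adjusted p = 0.595) and -0.36 (SE 0.26, 95% interval from -0.96 to 0.24, adjusted p = 0.546). Their residual SDs exceeded those of 97.8% and 95.9% of all probes tested. Without both BTBR replicates 1 and 2, the differences turned to 0.20 (adjusted p = 0.703) and 0.13 (adjusted p = 0.699). With 1 array left out they ranged from -0.65 and -0.55 without BTBR replicate 3 (adjusted p = 0.271 and 0.237) to -0.13 and -0.12 without BTBR replicate 2 (adjusted p = 0.894 and 0.857).

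Several marker sums stood apart on the BTBR arrays with low Faah, that of glutamatergic hippocampal neurons included. The GABAergic neuron sum was 218500 on BTBR replicate 1 and 344500 on BTBR replicate 2, against 163200 to 239300 on the other arrays. The glutamatergic neuron sums were lowest on BTBR replicates 1 and 2, at 96240 and 92060, against 129800 to 179300 on the other 6 arrays. Camk2a gave most of that sum. Wfs1 of the same list did not follow, with 14.20 to 14.52 in B6 and 14.48 and 14.94 on those BTBR arrays. The oligodendrocyte sums, 473700 and 549300 against 289500 to 395300, were highest there. The summed thalamus markers were between 6284 and 12300 in B6 and were 78860, 13430, 8268 and 7696 in BTBR. The summed striatum markers were 28910, 135600, 25030 and 32240 in B6 and 75250, 333500, 29200 and 19420 in BTBR. B6 replicate 2, the highest of its strain in the striatum list, had the lowest B6 value at both Faah probes, while B6 replicate 4, the highest of its strain in the thalamus list at 12300, had the highest. The 6 choroid plexus markers summed to 60590 and 58520 in BTBR replicates 1 and 2, against 14340 to 35660 in B6 and 14890 to 19000 in the other 2 BTBR arrays. B6 replicate 3, with the highest B6 choroid plexus sum of 35660, was in the middle of the B6 Faah range. The part of tissue composition in the Faah values was not tested.

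The slides held different mice, and the strain difference was read on each. The interaction of strain and slide passed the test for none of the 13 member probes, with an adjusted p of 0.467 or more in limma. On slide 1 the Faah differences were -0.90 (adjusted p = 0.0688) and -0.72 (adjusted p = 0.0411), so that the second probe was called there, where 8.65% of all probes were called, and on slide 2 they were 0.08 and 0.00. The interaction of strain and slide was 0.99 (unadjusted p = 0.0244, adjusted p = 0.48) and 0.71 (unadjusted p = 0.017, adjusted p = 0.467) in limma. Over all probes the interaction was called for 0, with 9.94% at an unadjusted p under 0.05, so no difference between slides passed the test. For Daglb the first probe was lower on both slides, with differences of -0.50 (adjusted p = 0.0693) and -0.24 (adjusted p = 0.583), and the second likewise, with -0.51 and -0.19. Cnr1 differed by -0.09 on slide 1 and by 0.24 on slide 2. Of the 13 probes, which share arrays and partly genes, 13 were lower in BTBR on slide 1 and 5 on slide 2. The share of all probes lower on each slide was not analysed here. Slide 1 holds the BTBR arrays with the high thalamus and striatum markers, so that slide and these arrays cannot be told apart.

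**Figure D4:**
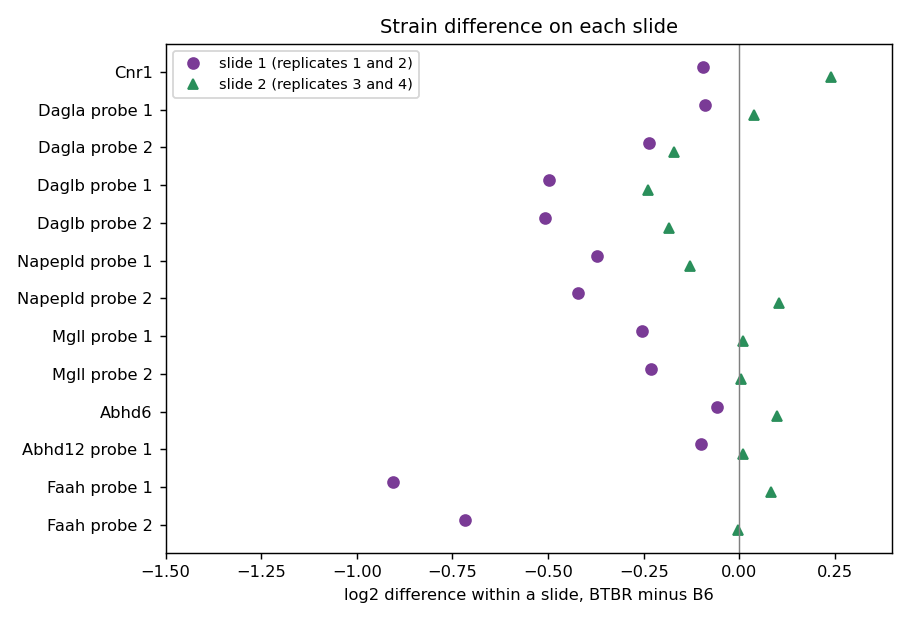
Difference of mean log2 intensity, BTBR minus B6 (x axis), at each of the 13 tested probes (y axis), within slide 1 (circles, replicates 1 and 2 of each strain) and within slide 2 (triangles, replicates 3 and 4). No error bars are drawn, since each point rests on 2 mice per strain. All 13 circles lie below 0, Faah the farthest at -0.90 and -0.72, while the Faah triangles are at 0.08 and 0.00.

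For 5 members, 2 probes were tested. The strain differences at the 2 probes of a gene differed by 0.18 for Dagla, -0.02 for Daglb, -0.09 for Napepld, -0.01 for Mgll and -0.05 for Faah. Exact permutation tests of the 5 pairs gave unadjusted p from 0.4 to 0.914 and adjusted p of 0.914 for all 5. With 4 arrays against 4 the smallest exact p is 0.0286, so a single pair could not pass after adjustment over 5, and the differences are given as values. Over the 8 arrays, which the probes of a gene share, Pearson r between the probes was 0.976 for Faah, 0.95 for Mgll, 0.848 for Daglb, 0.776 for Napepld and 0.128 for Dagla. The Faah probes thus followed the same mice, and the dim Dagla probes did not follow each other.

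The other genes of the pathway were read from 5 lists of 59 genes, each by its brightest tested probe. The arrays held probes for 58 of them, and 52 were tested. Limma called 6 of the 52 (11.5%), 2 higher and 4 lower in BTBR, where 7.82% of all genes read in this way were called, 3.49% higher and 4.33% lower. The median difference over the 52 was -0.02, against 0.01 over all genes. The second cannabinoid receptor gene, Cnr2, was not tested at either of its 2 probes, nor were the receptor genes Gpr55 and Gpr18.

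Neither the receptor list nor the effector list held a call. In the list of receptors and receptor partners 6 genes were tested and 0 called, with the smallest unadjusted p for Sgip1, a protein that holds CB1 at the surface, at -0.24 (adjusted p = 0.212). In the list of effectors and desensitization, from Gi proteins to presynaptic calcium channels and arrestins, 17 were tested and 0 called. The smallest unadjusted p there was for Prkaca, a catalytic subunit of protein kinase A, at 0.23 (adjusted p = 0.118).

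Of the 11 genes through which Gq-coupled receptors drive 2-AG synthesis, 1 was called. Chrm3, the M3 muscarinic acetylcholine receptor, read 8.97, 9.06, 9.06 and 9.18 in B6 and 10.41, 10.01, 11.49 and 11.01 in BTBR. All BTBR arrays lay above all B6 arrays, and BTBR replicates 3 and 4, with low thalamus and striatum markers, were the highest. The difference was 1.66 (SE 0.27, adjusted p = 0.00564), called in all 23 alternatives with values from 0.97, the median over its probes, to 2.18, without BTBR replicates 1 and 2. A second Chrm3 probe, well above background on 2 B6 and 4 BTBR arrays, differed by 0.28 (adjusted p = 0.311). The receptor genes Grm5 and Chrm1, which start the same route, differed by -0.08 (adjusted p = 0.861) and -0.10 (adjusted p = 0.826).

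Of 10 tested genes for other lipid synthesis enzymes, 2 were called, in opposite directions. Gdpd1, a lysophospholipase D that can form N-acylethanolamines, read 13.97, 13.83, 14.00 and 14.06 in B6 and 12.62, 12.47, 12.92 and 12.91 in BTBR. Its difference was -1.23 (SE 0.11, adjusted p = 1.58e-04) and was called in all 23 alternatives, with values from -1.35 to -0.62. A second Gdpd1 probe differed by 0.00 (adjusted p = 0.999), and the -0.62 is the median over both probes. Pla2g4e, an N-acyltransferase that makes the precursors on which Napepld acts, read 9.91, 9.91, 9.40 and 9.07 in B6 and 11.17, 10.78, 10.15 and 10.71 in BTBR. All BTBR values exceeded all B6 values, and the difference was 1.13 (SE 0.25, adjusted p = 0.0244). That call did not hold when B6 replicate 3 or 4 or BTBR replicate 1, 2 or 4 was left out, with adjusted p from 0.0559 to 0.0793. The differences in those fits were 1.07, 0.96, 0.97, 1.11 and 1.13. Nor did it hold without both BTBR replicates 1 and 2 (0.86, adjusted p = 0.149). A second Pla2g4e probe, with means of 7.75 in B6 and 7.73 in BTBR, was well above background on 1 B6 and 0 BTBR arrays and was not tested.

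Degradation and transport held 3 calls among 8 tested genes, all lower in BTBR. Ptgs2, cyclooxygenase-2, which oxygenates 2-AG and anandamide, fell by 0.78 on the log2 scale (SE 0.08, adjusted p = 2.94e-04), and its second probe fell by 0.66 (adjusted p = 0.00177). Its B6 arrays read 9.76, 9.69, 9.57 and 9.88 and its BTBR arrays 8.98, 8.84, 8.99 and 8.96. Naaa, an acid amidase that prefers palmitoylethanolamide, fell by 0.68 (SE 0.12, adjusted p = 0.00744). Fabp7, a fatty acid binding protein of astroglia that carries anandamide, fell by 0.48 (SE 0.11, adjusted p = 0.0254). Ptgs2 and Naaa were called in all 23 alternatives, whereas the Fabp7 call was lost in 8. These were the fits without B6 replicate 1, 2 or 3 or BTBR replicate 2 (adjusted p from 0.0664 to 0.0802), without both BTBR replicates 1 and 2 (adjusted p = 0.0756), with the replicate block (adjusted p = 0.0639), within slide 2 (adjusted p = 0.233) and with the rank product (pfp = 0.153). The Fabp7 difference lay between -0.55 and -0.41 over the 23, of which those that change only filter, blocks or test repeat its main value. Gfap, an astrocyte marker, fell by 1.30, and it was the 1 called marker of 6 in the astrocyte list.

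**Figure D5:**
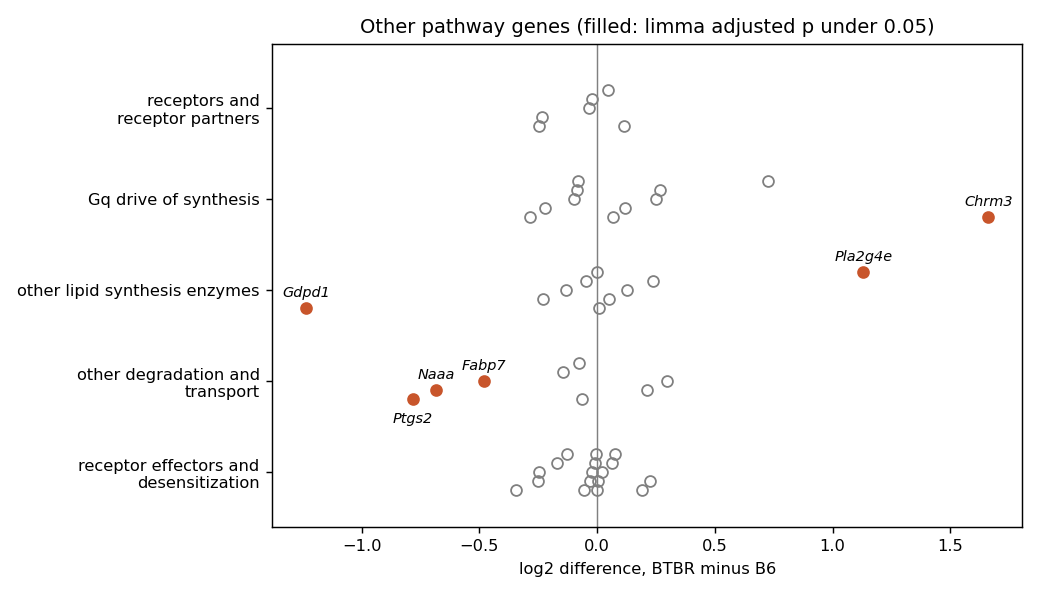
Difference of mean log2 intensity, BTBR minus B6 (x axis), for the 52 tested genes of the 5 pathway lists (y axis, 1 row of points per list, spread vertically for legibility). Filled points with a name have a limma adjusted p under 0.05. Chrm3 at 1.66 and Gdpd1 at -1.23 lie farthest from 0, and the receptor and effector lists hold no filled point.

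Patterns across the 8 arrays were compared with that of Cnr1 and with that of the first Daglb probe, which had the smallest p of the members. The named genes most like Cnr1 were Ddx24, Mkl1 and Wscd2, with Pearson r of 0.982, 0.964 and 0.963, and with r of 0.982, 0.964 and 0.986 after the strain means were removed. The named genes most like Daglb were Orc3, Fahd1 and Atg4c, with r of 0.992, 0.987 and 0.984, and of 0.974, 0.964 and 0.95 without the strain means. Of the 6 probes compared here, that of Fahd1 was called (-0.43, adjusted p = 0.0303) and that of Orc3 was not (-0.28, adjusted p = 0.0813). These are the highest correlations among the named genes of the 27982 probes, over 8 arrays, which share scaling and slide.

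Along the chromosomes, tested probes within 1 Mb of the brightest probe of each member were counted. Around Cnr1 on chromosome 4, 5 of 30 probes were called (16.7%), all lower in BTBR, among them those of Smim8 and Ube2j1 and another Orc3 probe than the one above (-0.31, adjusted p = 0.0469). Around Daglb on chromosome 5, 2 of 45 were called, those of Actb and Fbxl18, both lower. Around Dagla 1 of 51 was called, around Napepld 1 of 32, around Mgll 2 of 32, and around Abhd6, Abhd12 and Faah none of 19, 24 and 62. Of the 8 windows, that of Cnr1 was the 1 with a share above the 7.61% of all probes tested, and Cnr1 itself was not called.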

How the data were processed

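The authors labeled each RNA with Cy3 and deposited the intensity of every spot, read with Feature Extraction 10.7.3.1 (from the file headers, while the submitters' processing notes give 9.1). They also deposited a matrix of log2 values, background subtracted and quantile normalized by the authors, which served as an alternative. Here, in limma 3.58.1 under R 4.3.3, each spot's mean intensity was reduced by the median local background, floored at 0.5 and raised by 50, and log2 values of all 45018 spots were quantile normalized across arrays. Replicate spots were summarized by their median, control probes and 154 flagged probes were left out, and probes well above background on at least 75% of the arrays of 1 strain were kept (27982 probes). Limma fitted strain alone with Benjamini-Hochberg adjustment over these probes. The rank product used 100 permutations. Both were checked on simulated data. A marker sum is the sum of normalized intensity, without the offset, over the brightest tested probe of each marker. The number of arrays limits the precision. Alternatives were other signals, background corrections, scalings, filters and summaries, blocks, single slides and arrays left out; leaving out BTBR replicates 1 and 2 together, and the count of neighboring probes around every member, were chosen after the data were seen. Named genes are all members and the called genes of each pathway list (at most 4) or its gene with the smallest p. They are also at most 2 called genes per marker list, and the 3 genes most like Cnr1 and Daglb. Grm5, Chrm1, Cck, Cxcl14, Htr3a, Slc17a8, Sncg, Cnr2, Gpr55, Gpr18, Lhx9, Gbx2, Adora2a, Penk, Camk2a, Wfs1 and genes near the members were chosen once values were known. Members and lists were chosen with earlier results of these data known. The lists were written from general knowledge. Marker lists of GABAergic neurons, oligodendrocytes, choroid plexus and meninges held 0 calls, and in the endothelium list Slco1c1 was called (0.73).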

Additional observations from a re-analysis of the deposited data

Results flagged for a closer look

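In 4 of 38 groups of 4 arrays 1 array lay far from the other 3 by Dixon's test, which chance alone gives in about 1 of 20 groups. The first Daglb probe read 13.44 in B6 replicate 1 and between 13.14 and 13.18 in the other B6 arrays, and without that array the strain difference was -0.30. The second Mgll probe read 15.45 in the same B6 array, against 15.23 to 15.25 in the others. The first Napepld probe read 9.52 in BTBR replicate 2, against 10.29 to 10.41 in the other BTBR arrays. The first Abhd12 probe read 14.24 in BTBR replicate 3, against 13.98 to 14.00 in the others. The causes were not tested.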

How the results depend on the processing

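The number of called member probes was 0 in the main processing and 1 in the deposited matrix, after median centring and within slide 1, where 7.68%, 6.87% and 8.65% of all probes were called, and between 0 and 1 with 1 array left out. The call was the first Daglb probe, at -0.37 in the deposited matrix, -0.43 after median centring and -0.44 without BTBR replicate 3, and within slide 1 it was the second Faah probe at -0.72. With 1 array left out the first Daglb probe ranged from -0.44 to -0.30 and was not called in the other 7 fits. Signs turned for several members, among them Faah. Abhd6 was -0.041 after median centring, and within slide 1 it was -0.058 and Cnr1 -0.094. Within slide 2 the first Dagla probe was 0.039, the second Napepld probe 0.10, the Mgll probes 0.0084 and 0.0048, Abhd12 0.0081 and the first Faah probe 0.084. Without BTBR replicates 1 and 2 the first Dagla probe was 0.16, the second Napepld probe 0.022, Abhd12 0.025 and the Faah probes 0.20 and 0.13. With 1 array left out Cnr1 ranged from -0.10 to 0.35, the first Dagla probe from -0.11 to 0.038 and Abhd6 from -0.051 to 0.10. The difference between probes ranged from -0.12 to 0.027 for Daglb, from -0.039 to 0.018 for Mgll and from -0.12 to 0.032 for Faah, and for Mgll was 0.027 with the processed signal. Without a turn of sign it ranged from 0.056 to 0.30 for Dagla and from -0.19 to -0.0020 for Napepld with 1 array left out. The cause of these turns was not tested. Replicate numbers are shared by the strains and did not pair the mice (correlations of same-numbered arrays of -0.142, 0.51, -0.101 and 0.39, and 2 of 4 best with their own number). The replicate block is balanced between the strains and cannot move a difference, only its p. With it the first Daglb probe (-0.37) had an adjusted p of 0.127, and 0 member probes were called. Calls over all probes went from 2129 to 1650. They were 1036 within slide 2 and 1106 with the rank product. With 4 mice per strain, probes of wide spread such as Cnr1 and Faah allow differences of either sign within their intervals.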
